A study of Rattus norvegicus with 60 samples.

Results

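The regions described here are the surroundings of differentially methylated regions (DMRs) that lie close together on a chromosome. The study lists 299 tissue-concordant DMRs, chosen by the study on read counts of the P22 samples, because PAE differed from both C and PF, while PF and C did not differ, with a shared direction in the hypothalamus and in white blood cells (WBC). Of the 291 listed DMRs on chr1 to chr20, 65 lay within 500 kb of another one and outside 4 stretches of chr1, chr12, and chr13 that were set aside, and only the positions of these listed DMRs were used to choose regions. They formed 24 clusters, numbered here in genome order (Rn6), of which 20 held 2 listed DMRs. Peaks from all 60 samples that shared at least 1 bp were joined into regions, and those found in at least 3 samples were kept. The members are the 1681 of 456185 regions that lay within 100 kb of 1 of the 65 listed DMRs. Of these, 65 overlapped a listed DMR and are called DMR regions, and the other 1616 are called neighbours. The gaps between consecutive listed DMRs of a cluster ran from 0.989 to 485.87 kb (median = 144.23 kb). The widest gap kept was 485.87 kb and the narrowest gap not kept was 521.75 kb, while the farthest member lay 99.993 kb from its listed DMR.

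DNA methylation is the addition of a methyl group to cytosine, in mammals mostly where a cytosine precedes a guanine (CpG), and it is copied when cells divide. In methylated DNA immunoprecipitation (meDIP), an antibody against methylated cytosine pulls down methylated fragments, so the height of a peak depends both on how many CpGs a fragment holds and on how often they are methylated. Neighbouring CpGs within a short stretch often share their state, because the enzymes that add and remove the mark act along the DNA. Methylation also differs strongly between cell types, including the neurons and glia of the hypothalamus and the lymphocytes and monocytes of blood.

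All samples came from female Sprague-Dawley rats, an outbred stock, at most 1 per litter and age. Their dams received a liquid ethanol diet (PAE), a liquid control diet with maltose-dextrin in place of ethanol and in the amount eaten by a PAE partner (PF), or the pelleted control diet ad libitum (C), each from gestation day 1 to 21. The whole hypothalamus was collected on P1, P8, P15, and P22, and WBC were collected from the same animals on P22, with 4 animals per group, age, and tissue. The titles of the youngest samples read P0 while their age label reads 1 day, and P1 is used here. PF animals share the liquid diet and the restricted intake of PAE animals but no ethanol, so PF differs from C in both diet form and amount. In whole tissue, a change in methylation within cells and a change in the proportions of cell types cannot be told apart.

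The promoter of Spt1, which encodes a salivary protein, is shown because it was the only promoter among the 11 genes that the study assigned to the 65 listed DMRs, and because its cluster had the highest correlation between nearby regions. Sequences of 8 of the 11 genes were matched in RefSeq. The promoter is from the RefSeq assembly GRCr8, chr7:136918200-136918499, minus strand, 300 bases written 5′ to 3′ with each CpG in capitals.
Spt1: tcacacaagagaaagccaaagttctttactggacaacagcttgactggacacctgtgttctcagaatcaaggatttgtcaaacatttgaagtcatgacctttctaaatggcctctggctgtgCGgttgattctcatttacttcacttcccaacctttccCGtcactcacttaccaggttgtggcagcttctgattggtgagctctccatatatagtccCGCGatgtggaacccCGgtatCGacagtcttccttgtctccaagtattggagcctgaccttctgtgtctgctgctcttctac

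It held 6 CpGs, counted as CG on 1 strand, where the median over 33469 promoters of the same length was 7, and 48.6% of those promoters held as many or fewer. The listed DMR annotated to this promoter lies in the DMR region chr7:145339032-145339991 of Rn6. The assemblies differ, so the overlap of the sequence with that region was not established.

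Depth ranged from 11910384 to 22156238 filtered fragments, and samples held between 138637 and 227667 peaks. The PF 15 WBC sample went against its label. At 208 of the 345 members that differed between tissues, its height was nearer to the mean of the hypothalamus, compared with 44 to 75 in each of the other WBC samples. It was left out of results on WBC, as in the study. Where a printed r between a pair of regions in WBC moved by over 0.1 with it, that value is given too. Heights are the number of fragments over the highest summit of a sample in a region, scaled between samples, and samples in which none was called are printed as no peak. In comparisons, such samples were set to a floor of 6.35 fragments on the log2 scale, so differences below the peak threshold could not be seen.

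The neighbours resembled regions elsewhere, while DMR regions were found in more samples and varied more between animals. DMR regions held a peak in a median of 26 of 60 samples, compared with 17 for neighbours and 17 for all regions. A peak in fewer than 10 samples was found for 16.9% of DMR regions, 35.0% of neighbours, and 33.9% of all regions. The median height where a peak was called was 15.1 fragments in DMR regions, 13.9 in neighbours, and 13.9 in all regions. The SD between P1 to P15 hypothalamus samples of the same group and age had a median of 0.53 on the log2 scale in DMR regions, compared with 0.40 in neighbours and 0.40 in all regions. Since the P22 samples that chose the listed DMRs are among those counted, these differences are given without a test. Clusters held 18 to 134 members, or 64.8 to 298 regions per Mb (median = 164).

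Whether neighbours varied together was described with Pearson's r between regions over the 48 hypothalamus samples, after removing the mean of each group and age and of each DNA extraction round. Nearby regions did not, as a rule, vary together. For the 3084 pairs of members up to 10 kb apart, the median r was -0.02, compared with -0.01 for all regions of chr1 to chr20 at the same gap. The median r was 0.00 for the 11122 pairs of members 50 to 100 kb apart and for all regions at that gap. At gaps up to 2 kb, it was -0.05 in members and -0.05 in all regions. The share of pairs with r above 0.5 was 1.01% in members up to 2 kb apart, compared with 0.452% in all regions, and 1.00% vs. 0.605% at 2 to 10 kb. The share below -0.5 was 0.840% in members and 0.561% in all regions up to 2 kb apart, and 0.2009% vs. 0.307% at 2 to 10 kb. Among neighbours alone, 0.544% were above 0.5 and 0.906% below -0.5 up to 2 kb apart, and 0.860% and 0.215% at 2 to 10 kb. Of the 42 pairs of a DMR region with a neighbour up to 2 kb away, 4.76% were above 0.5 and none below -0.5. These shares rest on few pairs. For members vs. all regions, the shares above 0.5 were 0.620% vs. 0.598% at 10 to 50 kb, 0.827% vs. 0.561% at 50 to 100 kb, and 0.663% vs. 0.546% at 100 to 200 kb, and those below -0.5 were 0.222% vs. 0.236%, 0.216% vs. 0.236%, and 0.256% vs. 0.235%. Among 1289288 pairs of members from different clusters, 0.487% were above 0.5 and 0.228% below -0.5. In the 11 WBC samples, the median r of members up to 10 kb apart was -0.002, and 8.61% of pairs were above 0.5 and 8.21% below -0.5, compared with 8.22% and 8.88% of all regions. With PF 15 WBC, 7.37% of member pairs were above 0.5. Both regions of a pair share their libraries, depth, and scaling, and these correlations are descriptions over samples.

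**Figure D1:**
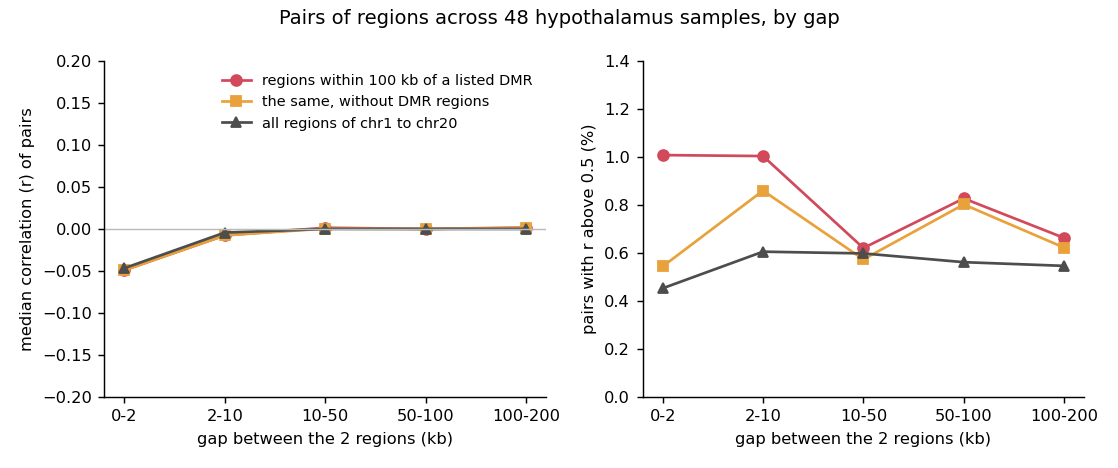
Median correlation (left) and share of pairs with r above 0.5 (right) for pairs of regions across 48 hypothalamus samples, against the gap between the regions in kb. The medians of the 3 sets lie on each other and near 0, while the share of pairs with r above 0.5 was 1.01% in members and 0.452% in all regions at 0 to 2 kb. Shares below -0.5, which are not drawn, were 0.840% and 0.561% at that gap.

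Pairs of DMR regions of one cluster were more often strongly correlated over the 48 hypothalami and over P1 to P15, but not above 0.5 in the P22 hypothalamus alone. Among the 99 pairs of DMR regions of the same cluster, 10 had r above 0.5 and 5 had r below -0.5 over the 48 hypothalamus samples, compared with 11 and 9 of the 1981 pairs from different clusters. These counts moved with the measure used. With peak presence in place of height, 5 pairs of a cluster were above 0.5 and 0 below -0.5 over the 48 hypothalami. None of the pairs given here as varying in opposite directions was thus below -0.5 by presence. At the DMR region chr4:17825111-17825789, a peak was called in 59 of 60 samples. Presence was nearly constant there and could not show whether heights varied in opposite directions. The 5 pairs below -0.5 were 2 with fold enrichment and 3 with a lower floor for samples without a peak. The mean absolute r was 0.248 in the first set and 0.149 in the second. In the 36 samples of P1 to P15, which were not used to call the listed DMRs, 12 pairs of a cluster were above 0.5 and 5 below -0.5, compared with 18 and 17 of 1981. In the P22 hypothalamus (11 animals), 9.89% of 91 pairs of a cluster were above 0.5 and 9.89% below -0.5, compared with 11.03% and 7.24% of 1505 pairs from different clusters (mean absolute r = 0.315 vs. 0.290). In WBC, these shares were 14.4% and 8.89% of 90 pairs, compared with 8.98% and 7.94% of 1926 pairs (mean absolute r = 0.321 vs. 0.287). With PF 15 WBC, they were 11.1% and 10.0% of the 90 pairs, and r moved by over 0.1 in 18. The 17 pairs belonged to 6 clusters, those of Sema3e (cluster 3), Spt1 (cluster 10), and Slc35f1 (cluster 23) and 3 intergenic clusters of chr13 (clusters 16, 17, and 18). They were not confined to short gaps, which ran from 0.866 to 804.5 kb (median = 102.2 kb), and 9 of the 17 were over 100 kb. The 20 clusters with 2 listed DMRs held 3 of these pairs out of 20, and the 4 larger clusters held the other 14 out of 79. Pairs that share a region are not independent of each other.

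**Figure D2:**
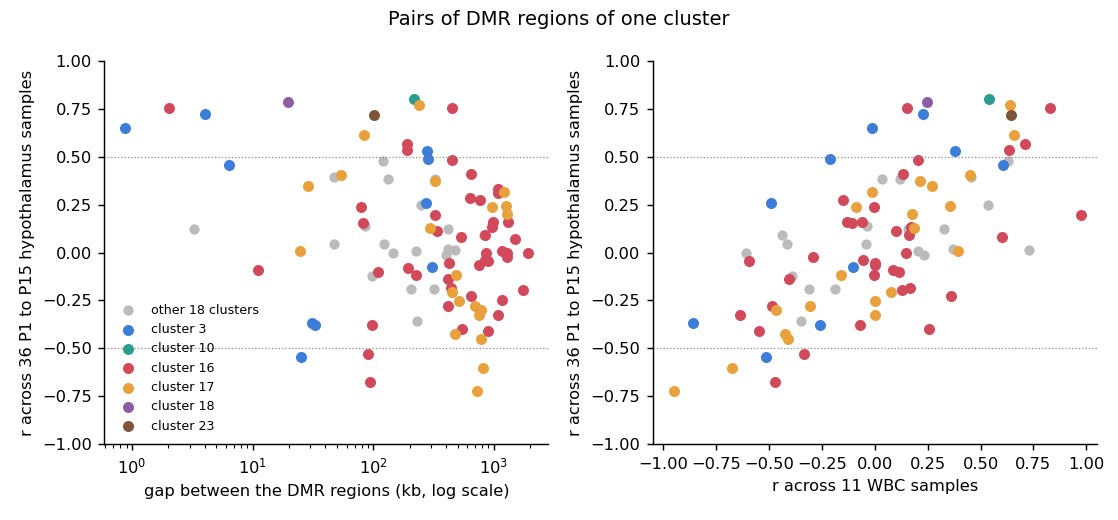
Each point is a pair of DMR regions of one cluster, with r across 36 P1 to P15 hypothalamus samples on the y axis against the gap in kb (left, log scale) and against r across 11 WBC samples (right). Dotted lines mark 0.5 and -0.5; 17 of 99 pairs lie outside them, and 16 of these have the same sign of r in WBC.

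The Spt1 cluster on chr7 had the highest median r between members up to 50 kb apart, 0.15. The DMR region at the Spt1 promoter, chr7:145339032-145339991, and the intergenic DMR region chr7:145556074-145556684 lie 216.1 kb apart. Both held a peak in 24 of the 48 hypothalamus samples, 11 samples had a peak only at the promoter, 2 only in the other region, and 11 in neither. In the P22 hypothalamus, the promoter region measured 21.1, 24.8, 32.2, and 18.3 fragments in C 13 to C 16, 20.1, 17.7, 40.0, and 39.2 in PF 13 to PF 16, and 20.4, 21.5, no peak, and 30.6 in PAE 13 to PAE 16. The other region measured no peak, 13.4, 18.4, and no peak in C, 15.6, no peak, 25.9, and 17.9 in PF, and 15.0, no peak, no peak, and 16.3 in PAE. The animals with the 5 highest promoter values all held a peak in the other region, and the groups overlapped in both. In WBC, the promoter region measured 24.9, 17.4, 29.6, and 17.4 in C, 28.0, 17.1, and 32.7 in PF 13, PF 14, and PF 16, and 15.2, 17.03, 12.8, and 20.1 in PAE. The other region measured 19.1, 14.8, 15.3, and no peak in C, 21.7, no peak, and 17.9 in PF, and 16.2 in PAE 13 with no peak in the other 3 PAE animals. The animals without a peak in the other region had the lowest promoter value of their group in C and in PF, but not in PAE. Across P1 to P15, r was 0.80, and it was 0.67 in the P22 hypothalamus and 0.54 in WBC (11 animals each, without PF 15). PF 15 WBC measured 16.2 fragments at the promoter and 18.9 in the other region, and with it r was 0.39 in WBC. It was 0.75 in C, 0.88 in PF, and 0.70 in PAE over the 16 hypothalami of each group.

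In this cluster, 6 of the 24 neighbours had r above 0.5 with a DMR region. The neighbour chr7:145566404-145567084 had r = 0.86 with the intergenic DMR region over the 48 hypothalami, 0.89 over P1 to P15, and 0.77 in WBC. It held a peak in 25 of 48 hypothalami, with heights up to 49.7 fragments. The neighbour chr7:145281210-145283294, 55.7 kb beyond the promoter, had r = 0.83, 0.81, and 0.84 in the same order. It held a peak in 32 of 48 hypothalami, with heights up to 73.9 fragments. The same neighbours thus varied with the DMR region in both tissues.

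**Figure D3:**
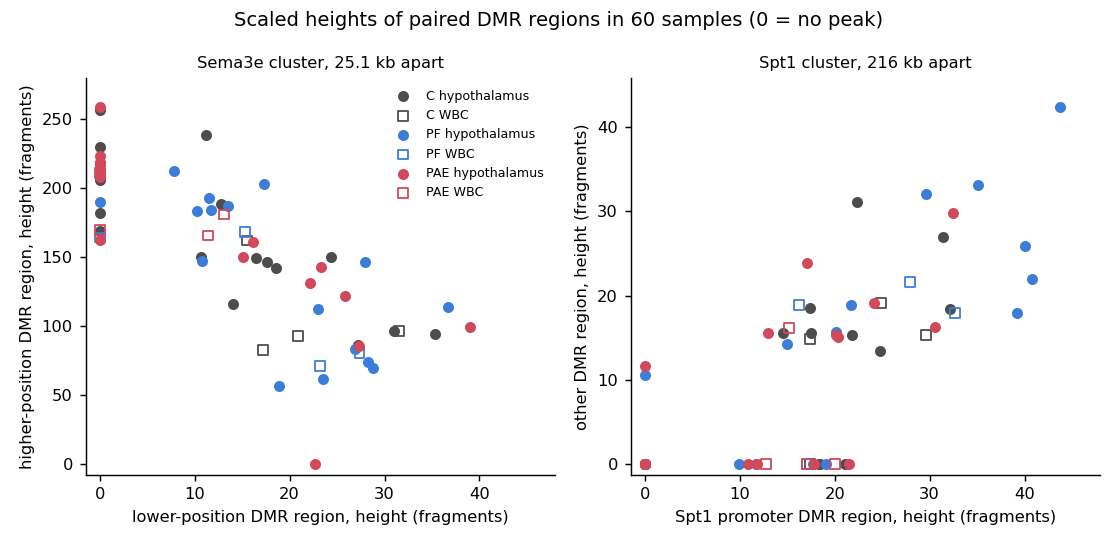
Scaled heights, in fragments, of a pair of DMR regions in the Sema3e cluster (left, 25.1 kb apart) and in the Spt1 cluster (right, 216 kb apart) in 60 samples, with 0 for no peak, filled circles for hypothalamus, open squares for WBC, and colours for C, PF, and PAE. In the Sema3e pair the higher-position region falls as the other rises, and in the Spt1 pair both rise together in all 3 groups.

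Sema3e encodes a secreted semaphorin that guides growing axons and blood vessels. Its cluster on chr4 held 5 listed DMRs, 1 in an intron of Sema3e and 4 intergenic ones. Pairs of both signs were found. The regions chr4:17792850-17794297 and chr4:17798349-17800049, 4.05 kb apart, had r = 0.73 across P1 to P15, 0.76 in the P22 hypothalamus, and 0.23 in WBC, or 0.62 with PF 15 WBC. The intronic region, chr4:17515962-17516612, had r = 0.53 with the former at a gap of 276.2 kb, 0.57 in the P22 hypothalamus, and 0.38 in WBC. The region chr4:17791294-17791984 had r = 0.65 with it, but -0.09 and -0.01 in the P22 hypothalamus and WBC, or 0.13 with PF 15 WBC. That region held a peak in 8 of 48 hypothalami and in 2 of 11 WBC samples.

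The region chr4:17825111-17825789 varied in the opposite direction to chr4:17798349-17800049, 25.06 kb away. It was among the tallest DMR regions, with a median of 149.9 and a maximum of 258.4 fragments in the hypothalamus. All 14 hypothalami without a peak in the other region held one here. On P22, the other region measured 14.1, no peak, 31.0, and no peak in C 13 to C 16, no peak, 28.8, 28.25, and 23.5 in PF, and 16.1, no peak, 15.1, and no peak in PAE. In the same hypothalami, chr4:17825111-17825789 measured 116, 168.5, 96.55, and 181.8 fragments in C, 189.8, 69.8, 74.2, and 61.7 in PF, and 161, 216.7, 149.8, and 162 in PAE. In each group, the animals without a peak in the first region were the highest in the second, while the groups overlapped. In WBC, chr4:17825111-17825789 measured 82.3, 92.4, 96.5, and 161.8 fragments in C, 167.8, 80.4, and 70.7 in PF 13, PF 14, and PF 16, and 165.4, 210.9, 169.7, and 180.6 in PAE. PF 15 WBC measured 164 fragments, close to PF 13. The animals C 16, PF 13, and PAE 14 were the highest of their group in both tissues. Across P1 to P15, r was -0.55 and Spearman's rho was -0.73. Pearson's r was -0.88 in the P22 hypothalamus and -0.52 in WBC, or -0.65 with PF 15 WBC. All 3 groups had a negative r, at -0.79 in C, -0.64 in PF, and -0.45 in PAE. The neighbours chr4:17913973-17915431 and chr4:17753984-17756701, which held a peak in every sample, had r = 0.65 and 0.58 with their most correlated partner among the DMR regions, and 0.25 and -0.16 in WBC, or 0.04 and -0.05 with PF 15 WBC.

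Cluster 16 spans 1924.39 kb of chr13 and held 10 intergenic DMR regions. The adjacent regions chr13:2629949-2630723 and chr13:2632729-2633630 had r = 0.76 across P1 to P15, 0.67 in the P22 hypothalamus, and 0.83 in WBC. They held a peak together in 34 of 48 hypothalami and in neither of them in 5. The former also varied with chr13:3080812-3081925 at a gap of 450.1 kb, with r = 0.75 and 0.60 in the hypothalamus and 0.15 in WBC. That region held a peak in every sample, between 16.45 and 35.9 fragments in the hypothalamus, so no sample was at the floor there. The region chr13:2538582-2539336 varied in the opposite direction to both adjacent regions, with r = -0.53 and -0.67 across P1 to P15, and -0.34 and -0.47 in WBC. It held a peak in 13 hypothalami, and 1 hypothalamus had a peak neither there nor in chr13:2632729-2633630. The region chr13:2440179-2440838, with a peak in 11 hypothalami, had r = 0.54 and 0.57 with the adjacent pair, 0.26 and 0.30 in the P22 hypothalamus, and 0.64 and 0.71 in WBC. Its r was negative in C, at -0.44 and -0.21, and positive in PF, at 0.65 and 0.54, and in PAE, at 0.61 and 0.55.

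Cluster 17 lies farther along chr13, spans 1292.22 kb, and held 7 intergenic DMR regions. The regions chr13:8145292-8146028 and chr13:8386978-8387968, 240.9 kb apart, had r = 0.77 across P1 to P15, 0.74 in the P22 hypothalamus, and 0.64 in WBC. Both held a peak in 19 of 48 hypothalami, and 22 had a peak in neither. The region chr13:8865952-8866676 varied in the opposite direction to chr13:8145292-8146028 at a gap of 719.9 kb, with r = -0.72, -0.30, and -0.95 in the same order. In WBC, chr13:8865952-8866676 measured no peak in C 13 to C 15 and 9.14 fragments in C 16, 11.7, no peak, and no peak in PF 13, PF 14, and PF 16, and 16.2, 12.3, 14.6, and 18.3 in PAE 13 to PAE 16. The region chr13:8145292-8146028 measured 14.35, 17.4, 22.0, and 8.23 in C, no peak, 16.2, and 21.1 in PF, and 8.56, 12.3, 10.95, and no peak in PAE. PF 15 WBC measured 11.7 and 8.11 fragments in the same order, and with it r was -0.94. Within each group, the animal with the lowest value in chr13:8145292-8146028 had the highest in chr13:8865952-8866676. The group difference at these regions in WBC is what chose them, while the order of animals within a group is not. The region chr13:8060704-8061495 had r = 0.61 with chr13:8145292-8146028 and -0.60 with chr13:8865952-8866676. These were 0.33 and -0.32 in the P22 hypothalamus, and 0.66 and -0.68 in WBC.

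Cluster 18 falls outside the rule for named clusters, and its pair was chosen after its values were seen. In this cluster, also on chr13, the intergenic regions chr13:19095660-19097233 and chr13:19116741-19118626 had r = 0.79 across P1 to P15, 0.47 in the P22 hypothalamus, and 0.25 in WBC. In cluster 23 on chr20, the region chr20:34367734-34368494, in an intron of Slc35f1, a member of a family of solute carriers, and an intergenic region 102.2 kb away, chr20:34470726-34471347, had r = 0.72, -0.02, and 0.64. The former held a peak in 17 of 48 hypothalami, in all of which the latter also held one.

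The sign of most of these correlations recurred across tissues, ages, and groups. Of the 17 pairs, 16 had the same sign of r in WBC as in P1 to P15 hypothalamus, and 15 had it in the P22 hypothalamus. With PF 15 WBC, all 17 had it in WBC, and r changed by a median of 0.04 and at most 0.388. Of the pairs with r between -0.5 and 0.5, 46 of the 68 for which both tissues gave a value other than 0 shared the sign. Within the 16 hypothalami of a group, the sign was shared by 15 of 17 pairs in C, 17 of 17 in PF, and 17 of 17 in PAE, with a median absolute r of 0.60, 0.64, and 0.71. By age, 16 of 17 shared it on P1, 17 of 17 on P8, 15 of 15 on P15, and 14 of 17 on P22, with 12 samples each and a median absolute r of 0.74, 0.79, 0.68, and 0.41. The P1, P8, and P15 samples make up 12 of the 16 hypothalami of each group. Since the samples of P1, P8, and P15 chose the 17 pairs, only WBC and P22 are separate samples, and these come from the same animals.

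Correlation also extended between clusters 16 and 17. Of the 35 pairs of DMR regions from different clusters with an absolute r above 0.5 in P1 to P15, 15 were on the same chromosome, and all 15 joined these 2 clusters, out of 70 possible pairs. Of the 15, 9 were positive and 6 negative, and 14 had the same sign of r in WBC, with or without PF 15. Among the 10918 pairs of neighbours of the 2 clusters, 1.502% were above 0.5 and 0.724% below -0.5 in P1 to P15, compared with 1.10% and 0.609% of all pairs of members from different clusters, and 43 of 92 such pairs with a value in WBC shared the sign. The gaps of the 15 pairs ran from 4.98 to 6.40 Mb.

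Of the 1616 neighbours, 46 had r above 0.5 and 16 had r below -0.5 with a DMR region of their cluster over the 48 hypothalami. Clusters differ in how many DMR regions a neighbour could be paired with, so shares of pairs are given. Of all 4830 pairs of a DMR region with a neighbour of its cluster, 1.10% were above 0.5 and 0.373% below -0.5, at gaps up to the length of the cluster. Of the 1899 such pairs up to 100 kb apart, 1.21% were above 0.5 and 0.474% below -0.5, compared with 0.578% and 0.248% of all regions at those gaps. By cluster, at all gaps, the share above 0.5 was 18.75% of 48 pairs in the Spt1 cluster and 10.0% of 40 in cluster 6. It was 3.125% of 32 in cluster 7, 2.69% of 186 in cluster 14, and 2.50% of 280 in the Sema3e cluster. It was 1.37% of 728 pairs in cluster 17 and 0.660% of 1060 in cluster 16. In 12 clusters, no pair was above 0.5. Among the neighbours named here outside the Spt1 cluster, the highest r was in cluster 6 on chr5, between the intergenic DMR region chr5:35366183-35366756 and the neighbour chr5:35367251-35368264, 0.634 kb away, with r = 0.79, 0.92 across P1 to P15, and 0.57 in WBC, or 0.47 with PF 15 WBC. The DMR region held a peak in 7 hypothalami, at 26.2 fragments in PAE 1, 8.24, 15.6, and 27.1 in C 5, C 6, and C 8, 37.0 in PF 8, 33.7 in PAE 9, and 20.1 in PF 13. The neighbour measured 21.2 in PAE 1, no peak, 19.5, and 19.7 in C 5, C 6, and C 8, 25.3 in PF 8, 35.6 in PAE 9, and no peak in PF 13. Both thus held a peak in 5 hypothalami, the DMR region alone in 2, and neither in 34. The neighbour alone held one in 7, among them PAE 13 at 30.05, PAE 6 at 16.45, and PAE 7 at 15.4 fragments. A second neighbour, chr5:35426686-35427276, had r = 0.70, 0.68, and 0.53 with the same DMR region.

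In cluster 17, the neighbours chr13:8924654-8925737 and chr13:8358042-8359197 had r = 0.59 and 0.60 with a DMR region, 0.74 and 0.77 across P1 to P15, and 0.61 and 0.68 in WBC. In cluster 16, chr13:3659456-3660768 had r = 0.59 with chr13:3080812-3081925, 0.64 across P1 to P15, and -0.22 in WBC, and chr13:2193385-2194147 had 0.44, 0.34, and -0.03 with its own partner. Cluster 12 on chr8 and cluster 7 on chr5 had the lowest median r between members up to 50 kb apart, -0.02 and -0.01, followed by cluster 16 at -0.01. There, the neighbour with the highest mean r to the DMR regions was chr8:110209696-110210311 at 0.32 and chr5:83670942-83671587 at 0.26, each with a peak in 3 of 60 samples. The next, chr8:110151576-110152534 and chr5:83641626-83642033, stood at 0.22 and 0.21. The strongly correlated DMR regions of cluster 16 thus lay among neighbours whose typical correlation was near 0.

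The clusters of the other genes held no pair of DMR regions with an absolute r above 0.5 over the 48 hypothalami, although single groups and WBC did. Over the 48 hypothalami, r between the 2 DMR regions was 0.05 for the cluster of Pot1, a protein of the telomere-capping complex, and -0.15 for that of Adamts9, a secreted metalloprotease. It was 0.29 for Pigb, a mannosyltransferase of GPI anchor synthesis, 0.05 for Map3k13, a kinase upstream of JNK, -0.17 for Rassf5, a Ras effector, and 0.28 for Ptpn14, a tyrosine phosphatase. The 3 DMR regions around LOC691083 had r between -0.01 and 0.16. The Pot1 pair had r = -0.41 in the 16 hypothalami of C, 0.29 in PF, 0.67 in PAE, and 0.73 in WBC, and the Pigb pair had 0.53 in C, -0.12 in PF, 0.36 in PAE, and 0.12 in WBC. In the cluster of Tns3, a tensin of focal adhesions, the second DMR region held a peak in 5 samples, too few for a value of use in hypothalamus, and r was -0.61 in WBC, or -0.26 with PF 15 WBC.

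On P22, which the list was called from, 48 of the 50 DMR regions with a value in both tissues had the same direction of PAE vs. C in hypothalamus and WBC, and 17 of 65 were higher in PAE. These counts restate how the list was made. Neighbours had the same direction in both tissues for 460 of 845 regions (54.4%), compared with 50.6% of all regions. The direction of the nearest DMR region was shared by 47.6% of the neighbours with a difference on P22. Within a cluster, 11 of the 12 pairs of DMR regions with r above 0.5 in P1 to P15 shared their direction on P22, none of the 5 pairs with r below -0.5 did, and 40 of the other 82 did. The P22 contrast chose these regions, so nothing is read from these counts. The samples of P1 to P15 did not choose the regions, but they chose these pairs by r. There, PAE vs. C had the same direction at both regions in 10 of the 12 pairs, 1 of the 5, and 38 of the other 82. Group means of regions whose deviations are correlated tend to move together or apart without any group effect. This holds although r was taken after removing group means, so nothing is read from these counts either.

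The deviations of both tissues of an animal from their group were compared as a description, since the listed DMRs were chosen on these same P22 samples for a direction shared by both tissues. That choice favours regions where animals deviate alike in both, so nothing is read from DMR regions against neighbours. Over the 65 DMR regions, r between the deviations of the hypothalamus and the WBC of an animal was 0.196 ± 0.196 (SD, n = 11 animals), and 9 of 11 were above 0, from -0.170 in C 14 to 0.494 in PF 13. With PF 15, the mean was 0.157 (n = 12 animals). Over neighbours, it was 0.024 ± 0.032, and over all regions 0.032 ± 0.0067 with all 11 above 0. The tissue from the same animal was the most similar one for 5 of 11 animals by DMR regions, 6 of 11 by neighbours, and 11 of 11 by all regions, which are far more numerous. Littermates were matched by animal number, breeding cohort, and group, which gave 11 pairs of hypothalami of different age from 7 litters. Their mean r was 0.130 ± 0.205 over DMR regions (9 of 11 above 0) and 0.024 ± 0.029 over neighbours, compared with 0.0072 ± 0.012 over all regions (7 of 11 above 0). Deviations were centred on the group and age, which fixes the mean of the remaining pairs, so these are not given. The spread was about as large as the mean or larger, except over all regions for both tissues of an animal. Since r across regions of one sample is not a replicate, no test was made.

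**Figure D4:**
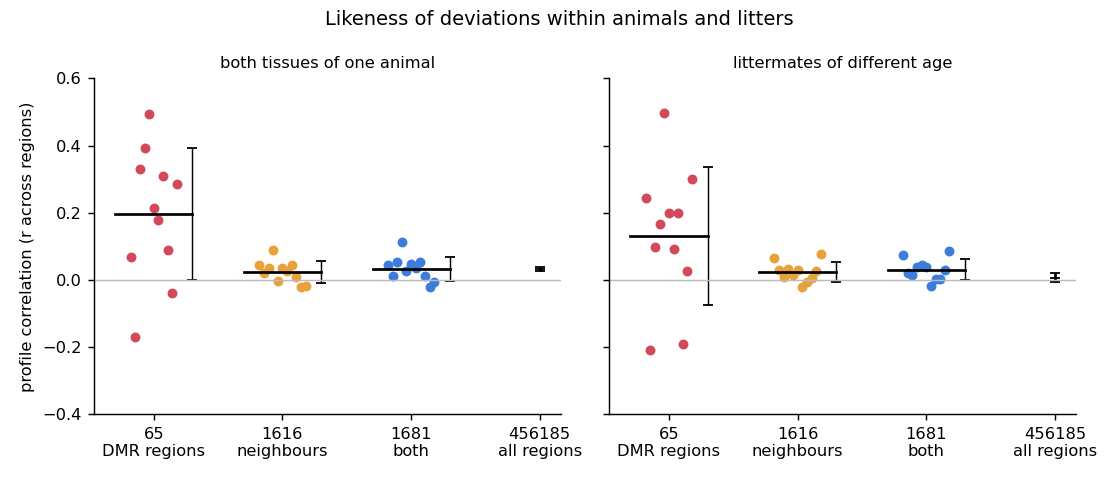
Correlation across regions between the deviations of both tissues of one animal (left) and of littermates of different age (right), for DMR regions, neighbours, both, and all regions; points are pairs of samples, black lines means, and error bars SD. For all regions only the mean and SD are drawn. The means over DMR regions are 0.196 for both tissues of one animal and 0.130 for littermates, with a wide spread.

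Prenatal groups were compared over the 36 hypothalami of P1 to P15, which were not used to call the list, with limma over all 456185 regions. None of the members passed an adjusted p of 0.05 in any of the 3 contrasts between PAE, PF, and C, and none of all regions did (0.0% called in each). At an unadjusted p under 0.05, PAE vs. C gave 82 of the 1681 members (4.88%), compared with 4.37% of all regions, and 11 of the 65 DMR regions (16.9%). PAE vs. PF gave 65 members (3.87%; all regions 4.22%) and 7 DMR regions (10.8%), and PF vs. C gave 67 members (3.99%; all regions 4.49%) and 11 DMR regions (16.9%). The 3 comparisons share their samples. By their numbers, some P1 to P15 animals have a littermate among the P22 animals. Within P1 to P15, C 5 and C 9, PF 5 and PF 10, and PAE 5 and PAE 9 were also matched as littermates. The group fits had no litter term, so these samples were treated as independent. Without the 8 samples that have a P22 littermate, PAE vs. C gave 8 DMR regions (12.3%; all regions 3.97%), PAE vs. PF 5 (7.69%; 4.08%), and PF vs. C 10 (15.4%; 4.18%). These counts moved with the samples used. With 1 replicate number left out, they ranged from 7 to 12 in PAE vs. C (7 without number 3), from 5 to 9 in PAE vs. PF, and from 5 to 12 in PF vs. C (5 without number 2). With peaks at q under 0.001 only, they were 8, 3, and 6 of 64, compared with 4.18%, 3.90%, and 4.30% of all regions.

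Of the 11 DMR regions of PAE vs. C, 6 were in cluster 16, and 5 of these were lower in PAE. The smallest p belonged to chr13:2629949-2630723. Over P1 to P15, it held a peak in all 12 C hypothalami, between 19.4 and 56.7 fragments (median = 41.0), in 9 of 12 PF hypothalami, up to 46.6, and in 5 of 12 PAE hypothalami, up to 48.3. The groups overlapped where a peak was called, and differed in how many animals had one. The log2 difference was -1.54 (SE = 0.42) in PAE vs. C and -0.92 (SE = 0.42) in PF vs. C, with adjusted p = 0.928 for the former (limma). The adjacent chr13:2632729-2633630 held a peak in all 12 C hypothalami, between 15.5 and 40.4 fragments, in 8 PF hypothalami, up to 31.1, and in 11 PAE hypothalami, up to 32.7. Its log2 difference was -0.82 (SE = 0.32) in PAE vs. C and -0.81 (SE = 0.32) in PF vs. C, and it passed in neither (adjusted p = 0.928 and 0.900 by limma). Both regions are members of a strongly correlated pair, and their differences are not separate observations. Across ages, the direction of PAE vs. C on P22 was shared with P1 to P15 by 40 of 64 DMR regions, or 37 of 64 without littermates, by 52.1% of 1432 neighbours, and by 50.6% of all regions.

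WBC and hypothalamus of P22 differed at 345 members (20.5%; limma, adjusted p under 0.05), compared with 24.0% of all regions. Of these, 211 were higher in WBC (all regions 15.4%) and 134 lower (all regions 8.64%). This split moved with the scaling and the measure. With quantile normalization, 169 members were higher and 156 lower (58325 and 43609 of all regions). With fold enrichment in place of height, 273 were higher and 115 lower (82987 and 35063 of all regions). With PF 15 WBC, 332 members passed (all regions 23.0%). Among DMR regions, 8 of 65 passed (12.3%), 6 of them higher in WBC, and 6 passed with PF 15 WBC. This fit did not use that both tissues come from the same animals. With the animal as a block, 289 members passed (17.2%; all regions 20.6%), among them 6 DMR regions, 4 higher and 2 lower in WBC. The Rassf5 region, chr13:48019856-48020577, held a peak in all 11 WBC samples, between 11.35 and 29.9 fragments, and in 3 of 12 P22 hypothalami, up to 14.9, with a log2 difference of 1.34 (SE = 0.17, adjusted p = 5.41e-06 by limma). The Tns3 region, chr14:88803125-88803626, held a peak in 10 of 11 WBC samples, up to 20.9 fragments, and in no P22 hypothalamus (adjusted p = 3.67e-06 by limma). The Pot1 region, chr4:51892608-51893502, went the other way, with a peak in 3 WBC samples up to 9.51 and in 7 of 12 P22 hypothalami up to 19.9 (log2 difference = -0.60, SE = 0.20, limma adjusted p = 0.0341).

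The share that differed between tissues varied by cluster, from 7.55% to 44.6%. The Ptpn14 cluster stood highest, with 45 of 101 members, 31 of them higher in WBC. It held the member with the largest positive difference, chr13:108700123-108700547, with 27.1 to 49.3 fragments in the 11 WBC samples and no peak in 12 hypothalami. It also held the one with the largest negative difference, chr13:108828407-108828898, with no peak in WBC and 25.8 to 43.2 fragments in all 12 hypothalami. Opposite tissue differences thus occurred within a single cluster. The lowest shares were in clusters 13, 16, 17, and 22, at 7.55%, 7.69%, 8.11%, and 7.69%. Among the other members with large differences, chr6:60453142-60453870 and chr11:83085544-83086231, the latter in the Map3k13 cluster, measured 21.9 to 34.9 and 16.6 to 27.4 fragments in WBC, with a peak in 4 and in 0 of 12 hypothalami. Lower in WBC were chr3:95227248-95228920, at 26.4 to 50.1 in hypothalamus and up to 10.5 in WBC, and chr18:46332534-46333681, at 23.4 to 37.7 and no peak in WBC. DNA extraction round nearly coincided with tissue, and with it in the model 39 members passed (2.32%; all regions 3.08%), with 0 of the 65 DMR regions among them (5 at an unadjusted p under 0.05, limma).

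P22 and P1 hypothalami differed at 205 members (12.2%; limma, adjusted p under 0.05), compared with 14.5% of all regions. Of these, 92 were higher on P22 (all regions 6.32%) and 113 lower (8.22%). With quantile normalization, 91 members were higher and 108 lower (28889 and 33304 of all regions). With fold enrichment in place of height, 58 were higher and 181 lower (21075 and 52202 of all regions). Among DMR regions, 5 of 65 passed (7.69%), 2 higher and 3 lower on P22. The Ptpn14 region, chr13:108788457-108789657, measured 49.9 to 80.0 fragments on P22 (median = 63.6) and 37.5 to 63.0 on P1 (median = 49.5), with overlapping ages and a log2 difference of 0.38 (SE = 0.08, adjusted p = 0.00314 by limma). The intronic Sema3e region rose by a log2 difference of 0.66 (SE = 0.20, limma adjusted p = 0.0269), with a peak in 10 of 12 hypothalami on P22 and 7 of 12 on P1. The 3 that fell were an intronic region of Tns3, chr14:88803125-88803626, and the intergenic regions chr13:3518363-3519243 and chr8:110166574-110167531. The Tns3 region held a peak in 6 of 12 hypothalami on P1, from 9.86 to 14.6 fragments, and in 0 of 12 on P22 (log2 difference = -0.50, SE = 0.16, limma adjusted p = 0.0369). The other two had log2 differences of -0.63 and -0.61 (limma adjusted p = 0.0128 and 0.0343). By cluster, the called share was highest in cluster 8 (22.2%, 6 of 27) and cluster 20 (21.8%, 22 of 101). Cluster 16 held 23 called of 117 members (19.7%), 18 of them lower on P22, and cluster 17 held 18 of 111 (16.2%), 15 of them lower. Cluster 16 also held the region with the largest rise, chr13:3571136-3571896, at 17.2 to 35.3 fragments on P22 and no peak in 12 hypothalami of P1. The largest fall was in the cluster of Pigb, at chr8:79698068-79698846, with 12.5 to 28.2 fragments on P1 and a peak in 1 of 12 hypothalami on P22. This region held a peak in 10 of 11 WBC samples, up to 39.3 fragments, and was also among those higher in WBC. Age cannot be told apart from meDIP round or from DNA extraction round, since P22 and P1 shared no round of either. With breeding cohort in the model, 79 members passed (4.70%; all regions 5.46%), 3 of them DMR regions.

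**Figure D5:**
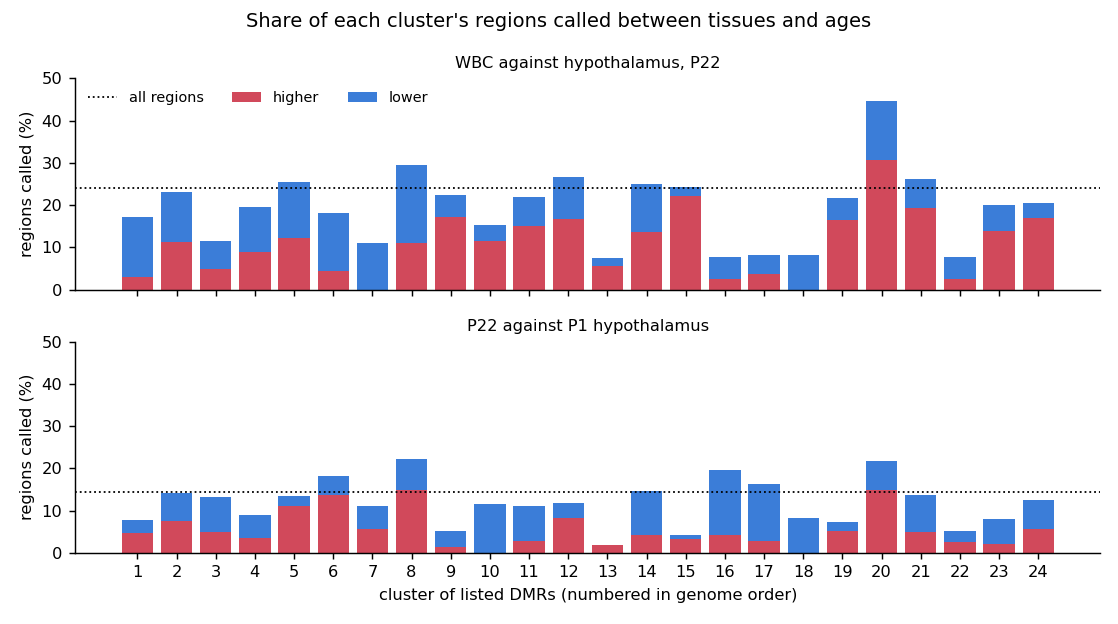
Share of each cluster's members called by limma at an adjusted p under 0.05, higher in red and lower in blue, for WBC against hypothalamus on P22 (top) and P22 against P1 hypothalamus (bottom), with the share of all regions as a dotted line. The Ptpn14 cluster (cluster 20) reaches 44.6% between tissues, while clusters 13, 16, 17, and 22 lie under the dotted line of 24.0%, at 7.55% to 8.11%.

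Differences of nearby regions were close to uncorrelated. Between members 10 to 50 kb apart, r of the tissue difference was 0.04, compared with 0.07 in all regions, and 52.4% vs. 55.5% of pairs had the same direction. For the age difference, r was 0.04 vs. 0.06, and 54.1% vs. 54.1% of pairs had the same direction. Up to 2 kb apart, r was -0.14 for tissue and -0.04 for age in members, and -0.05 and -0.0015 in all regions. For PAE vs. C over P1 to P15, r at 10 to 50 kb was -0.0048 in members and 0.0039 in all regions. These correlations run across pairs of regions, which share samples and overlap in regions, and no test was made.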

How the data were processed

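Methylated DNA was immunoprecipitated and sequenced in 60 samples, and the authors aligned reads with BWA to rn6, filtered them with SAMtools, and called peaks with MACS2 in each sample separately, with no input control and q-value cutoff 0.05. The deposited peak files give the signal height at each summit, in fragments, the ratio of that height to the local background (fold enrichment), and −log10 of the p-value and q-value. DiffBind was used by the authors for their own combined table, which was not used here, and gene assignments of listed DMRs follow the study's list.

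Heights were scaled by the median log ratio over 20470 regions that held a peak in all samples, and samples without a peak were set to a floor of 6.35 fragments, the median smallest scaled height. Depth per sample ran from 11910384 to 22156238 fragments, and a difference below the peak threshold is not detectable. Log2 heights were compared with limma 3.58.1 (R 4.3.3) across 456185 regions, with empirical Bayes moderation with a trend, two-sided tests, and Benjamini-Hochberg adjustment at 0.05. Groups were compared over P1 to P15 with extraction round within age and breeding cohort as covariates (36 samples), tissues with group and breeding cohort (23 samples, without PF 15 WBC), and P22 vs. P1 with group (24 samples). Samples of one tissue were taken as separate animals, since the study killed the offspring for collection at each age. Animal numbers recur across ages in the labels, and reading such a repeat as a littermate is an inference. Correlations were computed in Python 3.11.15 (scipy 1.17.1, pandas 2.3.3, numpy 2.4.6), and plots were drawn with matplotlib 3.10.9. The limma step was tested on simulated data for PAE vs. C over all 456185 regions. Of 100 regions changed by 1 on the log2 scale, 60% were recovered, and of 100 changed by 2, 96% were. False calls numbered 3 for each size of change. Recovery among members, or among regions with a peak in few samples, was not tested separately.

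WBC and hypothalamus with the same number come from the same animal per the labels. The fit with the animal as a replicate block called 289 members (17.2%; all regions 20.6%). Named clusters were the 3 with most listed DMRs and the 3 highest and 3 lowest by median correlation of members up to 50 kb apart, with at least 10 pairs. In each, the DMR regions and the 2 neighbours with the highest mean correlation to them were named, besides called members, at most 5 per direction and comparison, and every gene assigned to a listed DMR. The members and lists were chosen with earlier results of these data known. Alternatives covered the floor, the scaling, fold enrichment in place of height, peak presence, filters, windows, covariates, blocks, and leaving out samples, and some were added after seeing the data.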

Additional observations from a re-analysis of the deposited data

Results flagged for a closer look

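The DMR regions of the Sema3e and Spt1 clusters were searched for a single sample far from the other 3 of its group of 4 on the log2 scale, where all 4 held a peak. Of 35 such groups, 3 held one by Dixon's criterion, where chance gives about 1 in 20. In the Sema3e cluster, chr4:17798349-17800049 measured 36.73 fragments in PF 5 on P8, compared with 10.27 to 11.5 in the other 3 PF animals. The region chr4:17825111-17825789 measured 205.41 fragments in C 7 on P8, compared with 145.97 to 150.08 in the other 3 C animals. The same region measured 189.83 fragments in PF 13 on P22, compared with 61.66 to 74.16 in the other 3 PF animals. In WBC, PF 13 measured 167.8 fragments there and PF 15, which was left out of results on WBC, 164, compared with 80.4 in PF 14 and 70.7 in PF 16.

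The PF 15 WBC sample, which was outside the comparisons, lay nearer to the mean of the hypothalamus at 208 of the 345 members that differed between tissues, compared with 44 to 75 in the other WBC samples. Whether its label was exchanged was not tested.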

How the results depend on the processing

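No member passed in any of the 3 group comparisons under any alternative run, including the fit with the replicate number as a block (0 members in each). Numbers shared by P1 to P15 samples did not pair them (mean correlation of deviations -0.00011, from -0.04 to 0.02). Between tissues, 345 members passed (20.5%; all regions 24.0%), 289 with the replicate block (17.2%; 20.6%), and 39 with extraction round in the model (2.32%; 3.08%). When 1 animal number was left out, 207 (12.3%; 15.4%) to 248 (14.8%; 17.8%) passed, with 207 without number 14. Between P22 and P1, 205 passed (12.2%; all regions 14.5%), and 79 with breeding cohort in the model (4.70%; 5.46%). When 1 was left out, 159 (9.46%; 10.8%) to 174 (10.4%; 12.4%) passed.

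The median r of members up to 10 kb apart was -0.02, 0 with peak presence in place of height, 0.0522 with samples without a peak left out, and -0.0196 to -0.0104 when 1 number was left out. At 50 to 100 kb it was 0, 0.0094 in regions with a peak in 10 or more samples, 0.0135 with samples without a peak left out, and 0.0099 by Spearman. The 10 pairs of DMR regions with r above 0.5 became 5 with peak presence, and 8 to 11 when 1 number was left out. The 5 pairs below -0.5 became 2 with fold enrichment, 3 with a lower floor, 0 with peak presence, and 3 to 6 when 1 number was left out, with 3 without number 8. The cause of these shifts was not tested. The mean r between both tissues of an animal over DMR regions stayed between 0.131 and 0.209, and between 0.133 and 0.282 when 1 number was left out. Regions below the peak threshold limit all of these values.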
